A study of Homo sapiens with 4 samples.

Results

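LTAD cells transfected with an siRNA that targets PSF (siPSF) were compared with LTAD cells that received a control siRNA (siControl). LTAD is a subline that arose from the LNCaP prostate cancer line when it was kept for a long time without androgen, and it serves as a cell culture model of castration-resistant disease. Both cultures carry everything that line carries, both were transfected, and both grew without phenol red in serum stripped with charcoal (10% serum). The pair makes up 2 of the 4 arrays of the series, chosen by their labels. The other arrays, used here only as levels set side by side, came from untransfected LTAD cells in the same medium and from LNCaP cells held for 24 h in medium with 2.5% stripped serum. Each group had 1 array, so every difference below is between single arrays, with no error, no p-value and no replicate check. The siRNA sequences, the dose and the time after transfection are not stated in the labels used.

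Levels are deposited log2 values, and a difference is the siPSF value minus the siControl value, so 1 on this scale is 2-fold. A gene is read from its brightest probe set, a probe set being the group of array probes summarised to 1 value. Of 18417 genes on the array, 9209 had a mean level of the pair at or above 6.79, the median over genes, and were kept, and 9208 dimmer genes were left out. Over the kept genes the median difference was -0.03 with an SD of 0.26, and the quartiles were -0.18 and 0.11. At least 2-fold differences were few, with 8 genes higher with siPSF (0.0869% of the kept genes) and 57 lower (0.619%). The band from 1.5 to 2-fold held 58 genes that were higher (0.63%) and 234 that were lower (2.54%). Together this gives 66 genes at 1.5-fold or more on the high side (0.717%) and 291 on the low side (3.16%). Of the 58 and 234 genes in the band, 14 and 34 read under 6.79 in the dimmer array, and no detection call was used, so for those genes it is unknown whether the lower reading exceeded background. Without the filter the band held 169 and 372 genes.

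PSF, the product of SFPQ, binds RNA and DNA and works in pairs with its relatives NONO and PSPC1, a family named DBHS after its Drosophila behaviour and human splicing domains. These proteins help elongation, splicing and termination of transcripts and build paraspeckles, nuclear bodies assembled on the long non-coding RNA NEAT1. In prostate cancer cells PSF is known as a partner of androgen receptor signalling and as a regulator of splicing.

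SFPQ read 9.46 with siPSF and 10.91 with siControl, a difference of -1.44. After quantile normalization, which puts the 4 arrays on 1 scale, SFPQ read 9.87 with siPSF, 11.23 with siControl, 10.82 in untransfected LTAD and 10.83 in LNCaP, so the siPSF array was the lowest of the 4. PSPC1, whose protein can pair with NONO or PSF, read 10.12 with siPSF and 8.97 with siControl, a difference of 1.15. On the common scale PSPC1 read 10.50 with siPSF against 9.33 to 9.39 in the other 3 arrays. NONO differed by 0.07. Among 25 kept genes for DBHS and other paraspeckle proteins, the median was 0.07, with 13 above 0 and 12 below, and the rest of them lay between -0.30 (RBM3) and 0.34 (CIRBP), both cold-inducible RNA-binding proteins.

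Promoter stretches of 5 genes are shown here as examples of short motifs, whose shares in the bands and in some lists are given further below. They come from RefSeq (GRCh38.p14), run 5′ to 3′ on the gene's strand, and end before the start of the transcript. The capitals mark a motif on either strand: for MT2A and ENO2 the AP-1 site TGANTCA, which Jun and Fos proteins bind, for IFIT1 the interferon-stimulated response element (ISRE), for ANLN the cell cycle homology region TTTGAA, and for KIF11 that region and the CCAAT box.
MT2A, chr16:56608449-56608509, plus strand: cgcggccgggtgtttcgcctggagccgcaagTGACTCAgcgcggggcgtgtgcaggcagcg
ENO2, chr12:6914455-6914515, plus strand: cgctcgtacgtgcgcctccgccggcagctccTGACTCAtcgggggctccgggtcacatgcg
IFIT1, chr10:89392483-89392543, plus strand: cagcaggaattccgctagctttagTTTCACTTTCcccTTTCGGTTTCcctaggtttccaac
KIF11, chr10:92593055-92593115, plus strand: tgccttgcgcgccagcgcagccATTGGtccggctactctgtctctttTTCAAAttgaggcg
ANLN, chr7:36389802-36389861, plus strand: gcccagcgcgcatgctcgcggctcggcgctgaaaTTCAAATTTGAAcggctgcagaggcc
MT2A and ENO2 belong to the band that was higher with siPSF, IFIT1 to the genes at least 2-fold higher, KIF11 to the band that was lower and ANLN to the genes at least 2-fold lower.

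The brightest genes of the higher band had various roles. TXNIP, an arrestin-like protein that restrains glucose uptake and thioredoxin, read 12.90 with siPSF and 12.26 with siControl, a difference of 0.65. DDIT4, an inhibitor of the mTORC1 growth pathway, read 10.31 and 9.39, a difference of 0.92. NDRG1, a gene induced by hypoxia and by androgen, read 10.19 and 9.40, a difference of 0.78. DDIT4 and NDRG1 are both known to be induced by low oxygen. ENO2, the neuronal enolase of glycolysis, read 10.14 and 9.28 (difference 0.86). NFKBIA, the inhibitor that holds NF-kappaB in the cytoplasm, read 9.65 and 8.92, a difference of 0.73. Others of the 12 brightest were the metallothionein MT2A (0.61), the integrin-linked kinase ILK (0.59), the inositol phosphatase MINPP1 (0.69), SLFN5 of the interferon-inducible Schlafen family (0.72) and FAM222B (0.65).

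Not all of these genes stood highest in the siPSF array once the 4 arrays were on 1 scale. DDIT4 read 10.68 with siPSF, 9.77 with siControl, 8.01 in untransfected LTAD and 9.12 in LNCaP, so siPSF was the highest. TXNIP, at 13.13 against 12.55, 12.35 and 12.31, and MT2A, at 12.87 against 12.31, 11.62 and 12.66 in the same order, also stood highest there. NFKBIA read 10.05 and 9.32, under both untransfected arrays at 10.43 in LTAD and 10.73 in LNCaP. CDKN1A, the p21 inhibitor of cyclin-dependent kinases, read 9.55 and 8.72, with untransfected LTAD at 9.66. For NFKBIA and CDKN1A the siControl array was thus the lowest of the 4, and siPSF lay nearer to untransfected LTAD. Over the whole higher band the median of siPSF minus untransfected LTAD was 0.58, against 0.08 over all kept genes. That comparison shares the siPSF array with the main one.

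Further genes of the higher band, chosen after their values were seen, were receptors, secreted proteins and metabolic regulators. IL6R, the interleukin-6 receptor, read 9.37 with siPSF and 8.48 with siControl. IGFBP5, which binds insulin-like growth factors, read 9.04 and 8.20. P4HA1, a collagen prolyl hydroxylase induced by hypoxia, read 9.16 and 8.49. Each differed by 0.68 or more. SAT1, which breaks down polyamines, differed by 0.70, and the PI3-kinase inhibitor PIK3IP1 by 0.72, the latter from a siControl reading of 6.52 that lies under the filter level. ID2 (0.84) and BAMBI (0.76), a partner of basic helix-loop-helix factors and a decoy receptor, are both known to be induced by BMP signals. They were the only 2 of 19 kept TGF-beta and BMP genes at 1.5-fold or more. That list had a median of 0.04, with 11 above 0 and 8 below, and was not set apart by the rule given below. On the common scale ID2 read 9.90 with siPSF, 9.05 with siControl and 10.74 in untransfected LTAD. BAMBI read 9.36, 8.59 and 9.65 in the same order.

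The brightest genes of the lower band covered iron uptake, signalling, chromatin and membrane lipids. GULP1, an adaptor for the engulfment of dying cells, read 10.67 with siPSF and 11.56 with siControl, a difference of -0.89. MME, the cell surface peptidase neprilysin (CD10), read 10.45 and 11.22 (difference -0.77). TFRC, the transferrin receptor through which cells take up iron, read 10.27 and 11.14, a difference of -0.87. PRKD1, a kinase activated by diacylglycerol and protein kinase C, read 10.13 and 11.13, a difference of -1.0 that fell just short of 2-fold. MBNL1, a splicing regulator, read 9.83 and 10.67, and PEMT, which makes phosphatidylcholine from phosphatidylethanolamine, 9.88 and 10.80. The rest of the 12 were the transmembrane protein gene TMEM184C (-0.81), the zinc and manganese importer SLC39A8 (-0.79), ST7 (-0.70), the histone gene H3C11 (-0.64), UQCC2, an assembly factor of respiratory complex III (-0.62), and the microtubule protein gene MAP1B (-0.60).

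On the common scale these genes fell into different orders. PRKD1 read 10.51 with siPSF, 11.45 with siControl, 11.71 in untransfected LTAD and 11.92 in LNCaP, so siPSF was the lowest of the 4. GULP1 (11.04 against 11.54 to 11.89) and MBNL1 (10.22 against 10.52 to 11.01) were also lowest with siPSF. MME read 10.81 with siPSF and 11.54 with siControl, and both transfected arrays lay far under 12.93 in untransfected LTAD and 13.12 in LNCaP. TFRC was different, since siPSF at 10.65 lay beside untransfected LTAD at 10.60, and siControl at 11.45 was the highest. H3C11 read 10.72 with siPSF and 11.31 with siControl but 7.76 in untransfected LTAD. The median of siPSF minus untransfected LTAD was -0.49 over the lower band and -1.31 over the genes at least 2-fold lower.

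**Figure D1:**
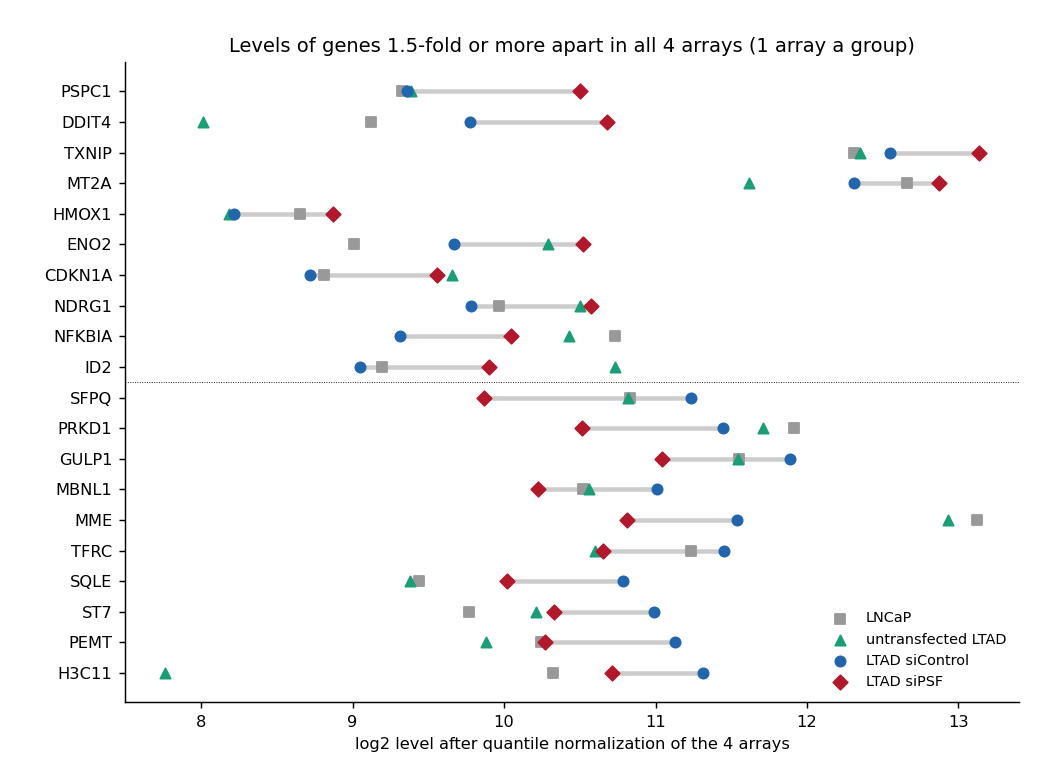
Levels of 20 named genes in the 4 arrays (log2 after quantile normalization, x axis), 1 array a group; the grey bar joins siControl and siPSF, genes above the dotted line were higher with siPSF and those below it lower. For PSPC1, DDIT4 and TXNIP the siPSF point lies outside the other 3 on the high side, and for SFPQ, PRKD1 and GULP1 on the low side, whereas TFRC and NDRG1 with siPSF lie beside untransfected LTAD.

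The limits of the band cut through a continuous spread of differences. On the high side CGN, cingulin, lay just inside 1.5-fold at 0.585 and the integrin gene ITGA5 just outside at 0.584. KIF27 lay just inside 2-fold at 1.0 and PLEKHH1 just under it at 0.97. On the low side MVB12B (-0.586) and GMDS (-0.584) stood either side of 1.5-fold, and RSU1 and PRKD1, both -1.0 when rounded, either side of 2-fold.

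Genes that span long stretches of the genome were more common in the lower band than among all kept genes. The median genomic length of its members came to 138 kb, to be set beside 28.9 kb in the higher band and 28.8 kb for the kept genes as a whole. Of its genes 59.4% exceeded 100 kb, against 16.2% of all kept genes. The share of genes at least 1.5-fold lower was 0.629% among the 2068 kept genes under 10 kb, 1.09% from 10 to 30 kb, 2.04% from 30 to 100 kb and 8.72% from 100 to 300 kb. Among the 216 genes over 300 kb it was 35.6%, or 77 genes, with a median difference of -0.43 and 0 genes at least 1.5-fold higher. Examples are ROBO1, an axon guidance receptor (1171 kb, -0.93), TBC1D5, a Rab GTPase-activating protein of endosomes (585 kb, -1.0), STK3, a Hippo pathway kinase (599 kb, -0.65), and DOCK1, an activator of Rac (547 kb, -0.71). With only genes of 100 kb or less, 95 genes were left in the lower band and 8 at 2-fold or more. The part of span in the values of single long genes was not tested.

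**Figure D2:**
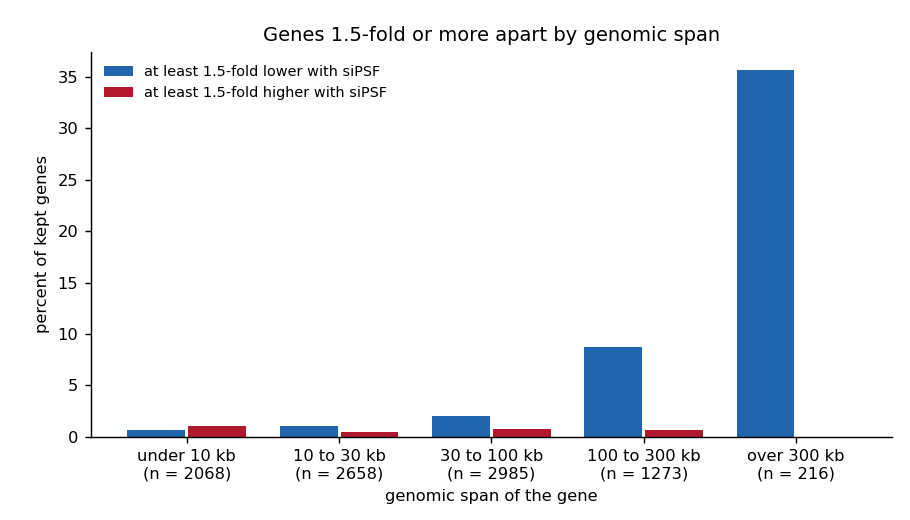
Percent of kept genes at least 1.5-fold lower (blue) or higher (red) with siPSF, by genomic span, with the number of genes in each class under the bar. The blue bars go from 0.629% under 10 kb to 35.6% over 300 kb, and the red bars stay at or under 1.02%.

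Gene families and pathways were described with 74 lists, of which 67 had at least 5 kept members. A list was set apart when its median lay 0.1 or more from the median of all kept genes, which was so for 13 lists on the high side and 16 on the low side. Such a shift is a description of this pair of arrays and no test. Counts of members at 1.5-fold or more are read against the shares given above, and counts above or below 0 against the 43.7% of all kept genes that lay above 0.

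The list of metallothioneins, small proteins that bind zinc and copper, and of further genes of the heavy metal response had the highest median at 0.42, with 6 of 9 kept members above 0 and 3 below. MT2A read 12.63 with siPSF and 12.02 with siControl, and its 3 probe sets differed by 0.60 to 0.61. MT1X read 10.15 and 9.61, MT1F 10.31 and 9.85, MT1G 11.49 and 11.07, and MT1H 7.10 and 6.54. All of these kept MT1 and MT2 genes were higher with siPSF, by 0.42 to 0.61. They are near-identical copies, so their probes may read one another and the genes do not count as separate readings. MT3, a more distant relative known from brain, lay at -0.07. SLC30A1, a zinc exporter known to be induced by the metal-sensing factor MTF1 as metallothioneins are, differed by 0.31, and MTF1 itself by -0.04. SLC30A1 was the highest of 6 kept exporters of the SLC30 family, of which 4 were below 0, with a median of -0.04. The SLC39 family, which imports zinc and was looked at after its values were seen, had 8 of 11 kept members below 0 and a median of -0.13. SLC39A8 (-0.79), SLC39A11 (-0.63) and SLC39A10 (-0.61, also the lowest member of the heavy metal list) were its members at 1.5-fold or more, and the highest, SLC39A6, lay at 0.15. SLC39A8 read 10.38 with siPSF on the common scale, against 11.12 with siControl and 12.82 in untransfected LTAD.

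Interferon-stimulated genes had a median of 0.24, with 18 of 20 kept members above 0 and 30 of 50 measured genes left out as dim. OASL differed by 1.81 and IFIT1 by 1.39, from siControl readings of 6.03 and 6.65 under the filter level, so both were kept through the siPSF array. IRF9, the DNA-binding part of the interferon-activated factor, read 7.45 and 6.82, and HERC6 7.59 and 6.98. The RNA sensor RIGI (0.49), ISG15 (0.49), a ubiquitin-like protein, and LGALS3BP (0.46) were next. EIF2AK2, the kinase PKR, lay lowest at -0.09. At 1.5-fold or more stood 4 of 20 members, OASL and IFIT1 among them. Over 5 alternatives on the pair the list's median went as low as 0.07, and the list stayed set apart as higher in all 5.

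Targets of p53, the factor that halts damaged cells, had a median of 0.20, with 33 of 38 above 0 and 3 at 1.5-fold or more. These were CDKN1A (9.14 against 8.30), the ceramidase gene ACER2 (0.79, siControl under the filter level) and TP53I3 (0.69). The death receptor FAS differed by 0.53 and SESN1, a sestrin, by 0.38. Phosphatases and early genes of ERK feedback had a median of 0.18 but a wide spread. Alternatives on the pair gave this list medians from -0.05 to 0.20. JUN read 9.67 and 8.50, DUSP10 differed by 0.73 and DUSP1 by 0.51, while SPRY1, a Sprouty inhibitor, differed by -0.53 and the ETS factor ETV1 by -1.10. Kept Jun family members were thus unequal, with JUNB at 0.18 and JUND at 0.02.

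Smaller upward shifts were seen in lists for the circadian clock, cell junctions and chromatin. Clock genes had a median of 0.13, with 10 of 16 kept members above 0 and 6 below. Within them the repressors CRY2 (0.43), BHLHE40 (0.40) and PER1 (0.39) were above 0 and the activators BMAL2 (-0.67) and CLOCK (-0.36) below. Only BMAL2 reached 1.5-fold, and the list's other members were not sorted by role. Claudins and tight junction proteins had a median of 0.13, led by CLDN12 at 0.41, with the scaffold TJP1 at -0.37. Chromatin modifiers had a median of 0.09 over 64 kept genes, of which 44 were above 0, from the H3K27 demethylase KDM6B (0.53) to the deacetylase HDAC8 (-0.83). Axon guidance genes had a median of 0.11, although SEMA3C (-2.00), EFNA5 (-1.29) and ROBO1 (-0.93) were far lower, so the list's median and its extremes differ in sign. The ephrin receptor EPHA2 (0.53) and its ligand EFNA1 (0.53) were the highest there. Further lists on the high side were keratin-associated proteins and defensins (0.12, 77 of 91 left out), calcium, sodium and TRP channels (0.12, 51 of 58 left out), MHC class I presentation (0.09) and cadherins (0.09).

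The cholesterol pathway was the lowest of the metabolic lists, with a median of -0.32 and 18 of 23 members below 0. The synthesis enzymes MSMO1 (9.29 with siPSF against 10.27 with siControl), SQLE (9.62 against 10.43), HMGCS1 (8.73 against 9.53) and IDI1 (8.82 against 9.53) were 4 members at 1.5-fold or more on the low side. MYLIP read 8.74 and 7.81 and was the only member at 1.5-fold on the high side. It encodes the ligase IDOL, which degrades the LDL receptor and is induced by liver X receptors. ABCG1, a sterol exporter induced by the same receptors, differed by 0.26, and SREBF1 by 0.20. The reductase TM7SF2 (0.36) and LBR (0.21) were synthesis genes above 0. SQLE on the common scale read 10.02 with siPSF and 10.78 with siControl, but 9.38 in untransfected LTAD, under both transfected arrays.

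Enzymes for nucleotides and one-carbon units were lower by small amounts in nearly every member. None of the 12 kept pyrimidine genes was above 0, with a median of -0.26 and a range from -0.01 (CTPS2) to -0.39 (RRM2, a ribonucleotide reductase subunit). CAD, which starts pyrimidine synthesis, differed by -0.35 and DHODH by -0.26. Serine, glycine and one-carbon enzymes had a median of -0.22, with MTHFD1L at -0.46 and SHMT2 alone above 0 at 0.10. Purine enzymes had a median of -0.15, with 13 of 14 below 0. No gene of these 3 lists reached 1.5-fold.

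The secretory pathway showed the same kind of small, broad shift. Protein folding and ERAD genes of the endoplasmic reticulum had a median of -0.29, with 22 of 25 below 0, among them SDF2L1 (-0.55), HERPUD1 (-0.46), EDEM1 (-0.45) and the sensor ATF6 (-0.41). The translocon, signal peptidase and N-glycosylation list had a median of -0.21 with 23 of 25 below 0, led by SSR1 (-0.53) and DPAGT1 (-0.43). COPI and COPII coats lay nearer to all genes at -0.08. Targets of ATF4, the factor of the amino acid response, had a median of -0.06 and no common direction, since DDIT4 (0.92) and SESN2 (0.57) stood against SLC1A5 (-0.54) and ASNS (-0.39).

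Proliferation genes were lower as groups, and few passed 1.5-fold. G2/M genes had a median of -0.26 with 46 of 51 below 0, but 2 at 1.5-fold or more, ANLN (7.84 against 9.10), a scaffold of the contractile ring, and KIF11 (7.74 against 8.50), the spindle kinesin. CCNB1, cyclin B1, lay at 0.06 and CDC20, an activator of the anaphase-promoting complex, at -0.06. Of 43 DNA replication genes 40 were below 0 (median -0.24), with CDC6 (-0.65) and MCM6 (-0.60) at 1.5-fold. Ribosome biogenesis had a median of -0.21 with 43 of 45 below 0, led by DDX10 (-0.78), NOP16 (-0.63) and UTP14A (-0.59). Cytosolic ribosomal proteins themselves had a median of 0.05 over 62 kept genes, within -0.34 to 0.24, while mitochondrial ribosomal proteins had -0.13, with MRPS12 at -0.72.

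The side of several lists depended on which LTAD array was the control. Against untransfected LTAD the band from 1.5 to 2-fold held 988 genes that were higher and 656 that were lower. After quantile normalization, siPSF minus untransfected LTAD had a median of 1.24 for G2/M, 0.66 for DNA replication, 0.90 for one-carbon enzymes, 0.45 for pyrimidine enzymes, 0.31 for folding and ERAD and 0.23 for the cholesterol pathway, against 0.08 over all kept genes. The siControl array stood still further above untransfected LTAD, by 1.45 for G2/M and 0.92 for DNA replication. In these 6 lists the siPSF median was lower than that of siControl and both lay above untransfected LTAD. The same order held for ribosome biogenesis (0.32 with siPSF, 0.49 with siControl) and purine enzymes (0.26 and 0.44). NRF2 targets lay above untransfected LTAD as well (0.26 with siPSF, 0.18 with siControl). Integrator (-0.01) and mitochondrial ribosomal proteins (0.07) were no longer set apart as lower. Metallothioneins (0.37), p53 targets (0.29) and interferon-stimulated genes (0.23) lay on the high side against untransfected LTAD too, and so did claudins (0.50). With siControl in place of siPSF, these 4 medians were -0.04, 0.14, -0.03 and 0.28, against 0.09 over all kept genes. Claudins were thus higher than untransfected LTAD in the siControl array as well. For other high lists, medians of siPSF minus untransfected LTAD were 0.06 for ERK feedback, 0.09 for chromatin modifiers and -0.02 for clock genes. They were -0.15 for MHC class I, -0.19 for axon guidance and -0.04 for keratin-associated proteins. All of these lists were no longer set apart as higher. The clock, MHC class I, axon guidance and keratin-associated medians lay 0.1 or more under that of all kept genes. By the same rule they were thus set apart as lower. The translocon list (-0.11), the TCA list (-0.09) and synaptic adhesion genes (-0.13) stayed on the low side. For siControl minus untransfected LTAD these medians were 0.12, 0.11 and -0.02. Androgen-induced genes lay at -0.50 with siPSF and at -0.55 with siControl, so siPSF was not lower than siControl there. The siPSF array is shared by these comparisons.

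In energy metabolism, the 2 TCA genes at 1.5-fold or more encode parts of 1 enzyme. SUCLG2 and SUCLA2, the alternative beta subunits of succinyl-CoA synthetase, read 8.18 against 9.21 and 8.55 against 9.14, and the shared alpha subunit SUCLG1 differed by -0.37. SUCLG2 spans 294 kb, in a class where 8.72% of kept genes were at least 1.5-fold lower, and SUCLA2 spans 58.6 kb. SUCLA2 lay at -0.55 after quantile normalization, under 1.5-fold. What part span had in these values was not tested. The TCA list as a whole had a median of -0.14, with 22 of 25 below 0. DLAT and OGDH, core parts of the pyruvate and oxoglutarate dehydrogenases, differed by -0.41 and -0.32. NRF2 targets had a median of -0.14, although HMOX1, haem oxygenase, differed by 0.65 and the malic enzyme ME1 by -0.63.

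Heterotrimeric G proteins, which pass signals on from cell surface receptors, held several of the lower genes. Of 26 kept G protein subunits and regulators, 5 were at 1.5-fold or more on the low side and 0 on the high side, while the list's median was -0.11. GNAQ, the alpha subunit that activates phospholipase C, read 7.71 and 9.20. GNAI1, an inhibitory alpha subunit, read 7.19 and 8.17. GNG7 (-0.89), GNB4 (-0.83) and GNAL (-0.60) followed. Downstream of these subunits, PRKD1 (-1.0) and the diacylglycerol kinase DGKH (-0.67) were lower and the catalytic subunit of protein kinase A, PRKACB, read 8.50 and 9.33. These 3 genes are long as well, at 351 kb (PRKD1), 217 kb (DGKH) and 160 kb (PRKACB). On the common scale DGKH read 7.67 with siPSF, 8.29 with siControl and 6.31 in untransfected LTAD. PRKACB read 8.93, 9.72 and 12.50 in the same order. Of 12 kept protein kinase C and diacylglycerol kinase genes, 4 were above 0, with PRKCD highest at 0.34. That list had a median of -0.13 and was not set apart. The 5 subunit genes span 91.4 kb (GNAI1) to 316 kb (GNAQ), a range that reaches into the longest class, where the share of lower genes was highest. What part span had in the values of these signalling genes was not tested. Among lists with at least 5 kept members, synaptic adhesion genes had the lowest median, -0.36 from 11 kept (-0.10 over all 39 measured), with a median span of 339 kb and NLGN1 (-1.64) and NCAM2 (-1.33) lowest.

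Solute carriers held 10 of 150 kept genes at 1.5-fold or more on the low side and 2 on the high side, with a median of -0.08. SLC44A4 differed by 1.06 and the glutamine transporter SLC38A3 by 0.74. The glutamate transporters SLC1A1 (-1.15) and SLC1A3 (-1.05) and the aromatic amino acid transporter SLC16A10 (-1.08) were lowest, and SLC1A3 read 6.39 with siPSF, under the filter level. Androgen-induced genes had a median of -0.23 over 20 kept members but -0.02 over all 28 measured, where the list was no longer set apart, with ABCC4 (-0.67) and NCAPD3 (-0.70) lower, NDRG1 higher, and the kallikreins KLK3 and KLK2 at -0.34 and -0.38. The remaining low lists were Integrator (-0.15, with INTS9 at -0.63 and INTS8 at 0.49) and cAMP enzymes (-0.14).

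Many large families stayed close to the median of all genes. Zinc finger genes had a median of -0.03 over 310 kept members, with 6 at 1.5-fold or more on the low side and 0 on the high side. Medians of -0.01 for translation initiation factors, -0.03 for Mediator, less than 0.01 in size for 3′ end processing and -0.06 for hnRNP and SR proteins lay there too, and in the last list SRSF4 was the lowest at -0.68. Core histones had a median of -0.12 with H2BC14 (-0.70), H3C11 (-0.64) and H1-5 (-0.63) lower. Of 387 olfactory and taste receptor genes 1 was kept.

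**Figure D3:**
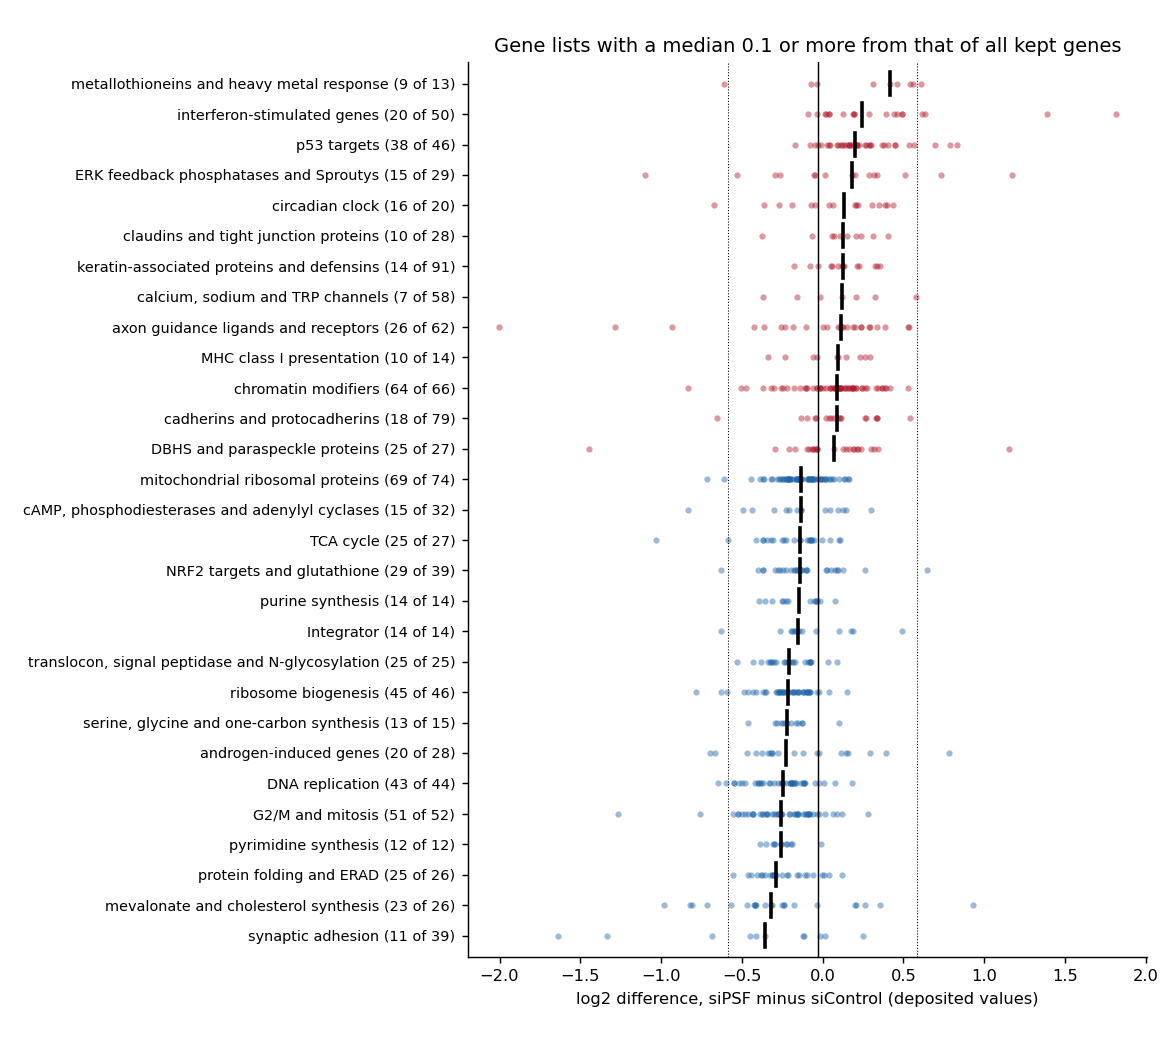
Differences (log2, x axis) of the kept members of the 29 lists set apart, 1 point a gene, with the black bar at the list's median, the number kept and measured in brackets, and dotted lines at 1.5-fold. The metallothionein and heavy metal list has the highest median (0.42) and synaptic adhesion genes the lowest (-0.36), and most points lie inside the dotted lines.

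Markers of prostate luminal epithelium, the cell type of the line, were present in both arrays. Of 12 measured luminal prostate markers 11 were kept, with 4 differences above 0 and 7 below and a median of -0.04. KRT8 read 11.74 with siPSF and 11.51 with siControl and KRT18 11.18 and 10.99, while the lowest difference was that of KLK2 at -0.38. Kept markers of other cells were 2 of 8 for basal epithelium (ITGB4 at 0.21, ITGA6 at -0.77), 3 of 12 for fibroblasts and smooth muscle (0.15 to 0.41) and 1 of 11 for immune and endothelial cells (CD68 at 0.19).

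Genes read by several probe sets gave a check on single readings within the same pair of arrays. Among 468 such kept genes, all probe sets had 1 sign in 331, or 70.7% (exact Clopper-Pearson 95% interval 66.4 to 74.8, for counting error only). The median SD within a gene was 0.07 and the median range 0.10, while 30 genes had a range of 1.5-fold or more. In 67 genes some probe sets had identical values, SLC44A4 among them, and counting these once gave 68.2% of 431 genes. The share was higher when every probe set was at or above the filter level, at 78.5% of 311 genes. With identical sets counted once that became 75.5% of 274 genes. Probe sets with nearly equal values still counted as separate, such as those of BAG6 (0.164 and 0.166) and VPS52 (-0.154 and -0.151). Such sets may not be independent readings, so these shares may overstate the agreement. No share expected for unrelated probe sets was computed. Over the 431 genes the share was 61.2% where the brightest probe set differed by under 0.1. It was 80.0%, or 12 of 15 genes, where the brightest differed by 1.5-fold or more.

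In several genes every probe set lay on the same side. ATXN7L1, a component related to the SAGA complex, had 6 probe sets between -1.05 and -0.35. PSD3, an exchange factor for ARF6, had -0.98 and -0.75, the tubulin chaperone TBCA -0.59 and -0.76, and GNAQ -1.49 and -0.89. TCF19 had -0.88 and -0.72, the former from a pair of identical probe sets. On the high side the probe sets of ENSA, a phosphatase inhibitor of mitotic entry, gave 0.28, 0.45 and 0.47, those of the chromatin protein HMGA1 0.28, 0.41 and 0.42, and those of the sialidase NEU1 0.39, from identical sets, and 0.41. RBM14, a paraspeckle protein, had 0.16, 0.54 and 0.40, the last 2 under the filter level. TAP2 had 3 probe sets from -0.32 to -0.23, and TUBB2A -0.15 and an identical pair at -0.23. The 3 probe sets of NFKBIL1 were identical at -0.23 and give 1 reading.

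Other genes differed within themselves. LRRFIP1 had 10 probe sets from -0.60 to 2.30, and its brightest, at 1.18, placed the gene in the 2-fold group. KLHDC10 had -0.05 in its brightest probe set but -0.77 and -0.53 in the others. ZBTB34 ran from -0.56 to 0.35 and ABCB8 from -0.60 to 0.07. For VAC14, a scaffold of the lipid kinase PIKfyve, the brightest gave -0.99 and the other, under the filter level, -0.27. DUX4, a gene in many near-identical repeats, had 12 probe sets from -0.04 to 1.02 and is uncertain for that reason. In these genes the value depends on which probe set is taken.

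**Figure D4:**
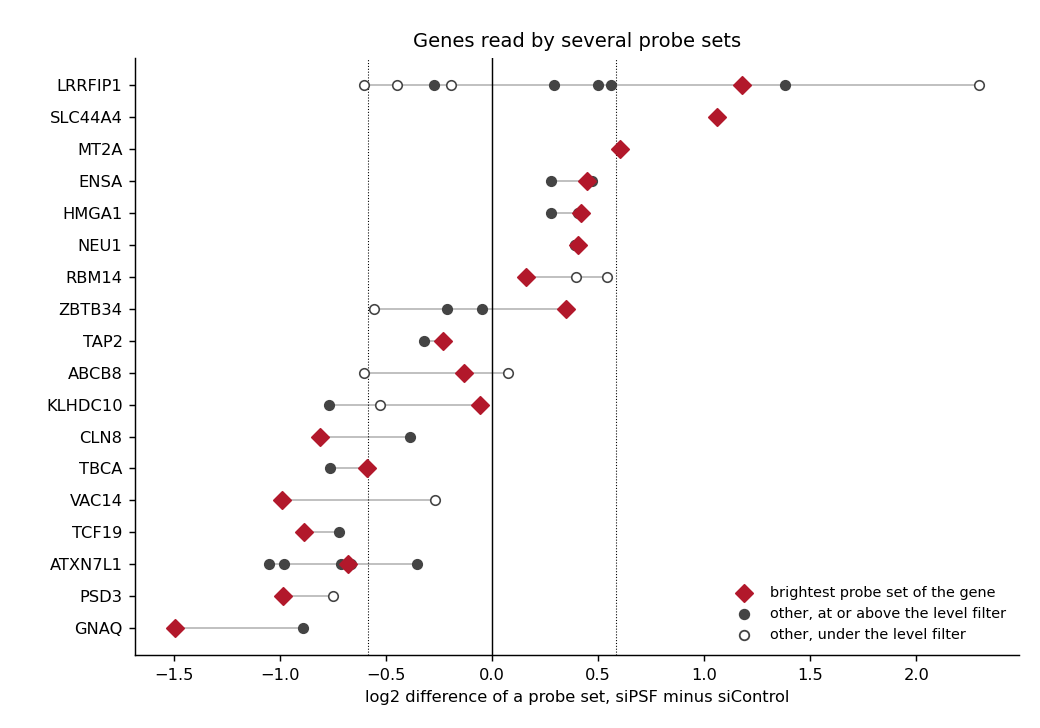
Differences (log2, x axis) of each probe set of 18 genes, with the brightest as a red diamond, others at or above the filter level filled, and dimmer ones open; dotted lines mark 1.5-fold. The 6 probe sets of ATXN7L1 all lie below 0, those of MT2A overlie one another, and the 10 of LRRFIP1 spread over both sides of 0.

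The motifs were counted on both strands from 250 bases before to 50 after the start, in 14239 promoters of measured genes, 7575 of them of kept genes. The AP-1 site was present in 10.9% (5 of 46) of the higher band, in 1.5% (3 of 200) of the lower band and in 3.64% of all kept genes. Among genes at 2-fold or more it was present in 0 of 6 on the high side and 2 of 50 on the low side. The 5 genes were ENO2, MT2A, IL6R, KLHL24 and FRMPD2, with the site at base -94 in ENO2 and -104 in MT2A. The interferon element was present in 56.2% (9 of 16) of kept interferon-stimulated genes, 2.52% of all kept genes and 3.04% of all promoters. IFIT1 holds it at -116 and -103. It was in 0 of 46 promoters of the higher band and in 1 of 6 at least 2-fold higher. Interferon-stimulated genes with the element had a median difference of 0.20, and those without it 0.39. The cell cycle homology region was present in 69.8% of G2/M genes, 9.04% of all kept genes and 11.9% of all promoters. It lies at -28 in KIF11 and at -26 and -20 in ANLN. In the lower band it was present in 10%, and in 16% (8 of 50) of the genes at least 2-fold lower. Both lists were drawn up from known genes of these pathways, so their shares describe the lists and not the effect of siPSF. The CCAAT box was present in 83.3% of folding and ERAD genes and 69.8% of G2/M genes, against 37.8% of all kept genes and 36.3% of all promoters. The sterol element TCACNCCAC was found in 5% of cholesterol pathway promoters, which is 1 of 20, in 1.12% of all kept genes and in 1.14% of all promoters. The E-box CACGTG was in 15.2% of the higher band, 10% of the lower band, 11.1% of all kept genes and 8.88% of all promoters. For the amino acid element TGATGNAA these shares were 0%, 2%, 1.56% and 2.54%. A match is a string of letters in a window, and no binding was measured.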

How the data were processed

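Biotin-labelled total RNA of 4 cultures was read on Affymetrix whole-transcript arrays with 33297 probe sets. Per the submitters' processing notes, RMA and Affymetrix Expression Console were used, and the authors deposited log2 levels. No version or setting is stated in the labels. The 4 columns were not on 1 scale, with medians of 5.98 (siControl), 6.04 (siPSF), 6.91 (LNCaP) and 7.20 (LTAD). The siPSF and siControl columns were therefore compared as deposited, and the 4 arrays only after quantile normalization. Of the probe sets, 19460 had 1 symbol, 1754 several and 12083 none. Symbols were updated to RefSeq (GRCh38.p14) through 19429 matched Entrez IDs.

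The filter, bands, lists and named genes were chosen with earlier results of these data known. Named were SFPQ, PSPC1 and NONO, the 12 brightest genes of each band from 1.5 to 2-fold, the genes with 3 or more probe sets and the 6 highest, 6 lowest and 6 widest values, genes with both probe sets at 1.5-fold, and list members at 1.5-fold (at most 4 a direction) or else the extremes. Others were chosen after their values were seen. The number of arrays limits the precision. The computation was tested on simulated data. Alternatives were other scales, filters, probe set rules, control array and spans. Some genes and 1 family are not reported here.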

Additional observations from a re-analysis of the deposited data

Results flagged for a closer look

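Outside the genes with 1 symbol, probe sets unnamed here gave a signal of their own. Of 12083 unnamed probe sets, 2922 had a mean level at or above the filter level, and 156 of these (5.34%) were at least 1.5-fold higher with siPSF, against 42 (1.44%) at least 1.5-fold lower. At 2-fold or more the numbers were 48 and 7. Among probe sets with 1 gene symbol at or above that level, 73 (0.755%) were at least 1.5-fold higher and 304 (3.14%) lower, so the balance of directions was the opposite one. The median difference was 0.07 for unnamed and -0.03 for named probe sets. What these probe sets read was not analysed here.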

How the results depend on the processing

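With no replicate, no leave-one-out value exists. No paired analysis was possible because each group had 1 array and the results come from no test. Without a filter there were 19 genes at least 2-fold higher and 94 lower, and 169 higher and 372 lower in the band from 1.5 to 2-fold. With the filter at the 75th percentile these were 3, 21, 23 and 90. With untransfected LTAD as control after quantile normalization they were 520, 303, 988 and 656. Genes of 100 kb or less, an alternative chosen after seeing the data, left 8 at least 2-fold lower and 95 in the lower band. Probe set agreement was 78.5% where every probe set was bright, and 75.5% of 274 genes there with identical sets counted once. Lists on the high side numbered 7 without a filter and 33 with untransfected LTAD as control. With quantile normalization of the 4 arrays the counts were 7, 48, 59 and 197. Of 214 named genes 15 dropped under 1.5-fold, among them MT2A (0.56), SUCLA2 (-0.55) and MCM6 (-0.55). KIF27 (0.95) and SUCLG2 (-0.98) dropped under 2-fold, while ITGA5 (0.60) and CACNB3 (0.59) rose over 1.5-fold. In addition, 1 gene near 0 changed sign (CTPS2, -0.01 to 0.01). Shifts of the DBHS list and of the cAMP list held in only 1 of 5 and 1 of 4 alternatives on the pair, and those of the ERK feedback, TCA, axon guidance and cadherin lists in 3 of 5. Quantile normalization of the pair alone and counting identical probe sets once were also chosen after seeing the data. No detection call was used, so low readings have no shown distance from background.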

Other observations

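The genes here were chosen after their values were seen, and no share over all kept genes stands beside them. The following genes of DNA repair lay in the band 1.5 to 2-fold lower with siPSF. BARD1, the partner of BRCA1, read 9.34 with siPSF and 10.00 with siControl. EXO1, a nuclease of mismatch repair and recombination, read 6.98 and 7.70, and UNG, which removes uracil from DNA, 7.71 and 8.37. MGMT, which reverses alkylation of guanine, differed by -0.60, BABAM2 of the BRCA1-A complex by -0.62 and SPIDR, a recombination scaffold, by -0.74. FANCC, RAD54B, ZRANB3 and SHLD1 differed by -0.90, -0.91, -0.96 and -0.80, each from a siPSF reading under the filter level of 6.79. SPIDR, BABAM2, ZRANB3 and MGMT span over 300 kb, while EXO1 and UNG span 42.0 and 13.4 kb.

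The following mitochondrial and lipid enzymes lay in that band too. Genomic spans of the genes in this paragraph are not given, although the share of lower genes rose with span over all kept genes. What part span had in these values was not tested. HADH, of fatty acid oxidation, read 7.88 and 8.71, and PCCA, a propionyl-CoA carboxylase subunit, 7.46 and 8.40. ELOVL6, a fatty acid elongase, differed by -0.82, LCLAT1, a cardiolipin acyltransferase, by -0.77 and FAR1, of ether lipid synthesis, by -0.70. NARS2 and FARS2, which charge mitochondrial tRNAs, differed by -0.77 and -0.96, while the 20 kept genes of the aminoacyl-tRNA synthetase list had a median of -0.11 and none at 1.5-fold. COMMD1 and COMMD10, of the Commander complex that recycles membrane proteins, differed by -0.87 and -0.85.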
